A study of Mus musculus with 6 samples.

Results

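Potassium, sodium and pacemaker channel genes were measured in 6 whole hearts, from C57Bl6J males 6 weeks old. All 6 mice carried floxed cyclin C alleles (fl/fl), and 3 of them also carried aMHC cre (cKO), whose promoter, that of alpha myosin heavy chain, directs the recombinase to cardiomyocytes. Controls lacked the recombinase, so Cre and the deletion cannot be told apart. Each library came from 1 heart, and expression was deposited as FPKM, fragments scaled to transcript length and library size. The channel genes were all rows whose name starts with Kcn, with Scn and a digit, or with Hcn and a digit, which gave 116 of 24314 rows. Of these, 47 had a mean of at least 0.5 FPKM over the 6 libraries and were tested, 55 lay below that line and 14 stood at 0.01, the lowest value in the table, in every library.

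The cardiac action potential is shaped by channels that open and close in turn. Sodium channels carry the upstroke, transient outward and delayed rectifier potassium channels carry repolarization, inward rectifiers hold the resting potential, and HCN channels carry the inward pacemaker current of the sinoatrial node. Most channels are built from pore-forming alpha subunits and smaller accessory subunits that change their gating or their number at the membrane. In mice, which have a short action potential, the transient outward and ultrarapid potassium currents dominate repolarization.

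Cyclin C itself (Ccnc) read 8.48, 7.60 and 10.8 FPKM across fl/fl 1 to 3, against 5.81, 5.70 and 4.53 FPKM across cKO 1 to 3, so every cKO heart read below every fl/fl heart, without passing the threshold (limma, adjusted p = 0.154). The ventricular light chain Myl2 read at least 8813 FPKM in all 6 libraries, which fits the heart label. The summed level of 10 cardiomyocyte markers listed as ventricular was 61580 to 85812 FPKM in fl/fl hearts against 35356 to 41205 FPKM in cKO. For 8 of the 10 all cKO hearts read below all fl/fl hearts, against 9.92% of all tested genes. The groups overlapped for Myh7 and for the iroquois factor Irx4. The mean of Irx4 was 15.7 FPKM in fl/fl hearts and 15.3 FPKM in cKO. The number of reads is not given, and spacing of the lowest values gave depths of 0.886 to 1.10 relative to fl/fl 1. Library fl/fl 1 held thymus and fat transcripts that were low elsewhere, with Rag1 at 14.6 FPKM and Adipoq at 56.4 FPKM. Replicate 3 of both genotypes stood apart in clock genes. The clock output factor Dbp read 22.8 FPKM (fl/fl 3) and 8.91 FPKM (cKO 3), against 93.6 to 125 FPKM in the other 4 libraries.

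No tested channel gene was called between genotypes (limma with Benjamini-Hochberg adjustment over 13096 genes, threshold 0.05), against 0.481% of all tested genes (0.305% higher and 0.176% lower in cKO). With the replicate block, 2 were called, against 1.37% of all tested genes. At an unadjusted p under 0.05 there were 9 of 47 channel genes, or 19.1%, against 12.2% of all tested genes. Of these 9, 6 were higher and 3 lower in cKO. Of the 1599 such genes among all tested, 791 were higher and 808 lower (6.04% and 6.17% of all tested genes). For 10 of the 47, or 21.3%, the genotypes did not overlap, near the 19.8% of all tested genes. Of these 10, 8 were higher and 2 lower in cKO. Of the 2590 such genes among all tested, 1291 were higher and 1299 lower (9.86% and 9.92% of all tested genes). The median log2 change was -0.01 for the channel genes (quartiles -0.12 and 0.17) and also below 0 by less than 0.01 for all tested genes. The authors' deposited table tested 39 channel genes and called 5 of them at a q-value under 0.05, or 12.8%, against 3.77% of all genes it tested. It called 2 higher in cKO (1.68% of all), Scn4b and Hcn4, and 3 lower (2.08% of all), Kcnj5 and Kcnj3 among them. Both tests used the same 6 libraries, and the 2 methods gave different calls for these 5 genes.

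**Figure D1:**
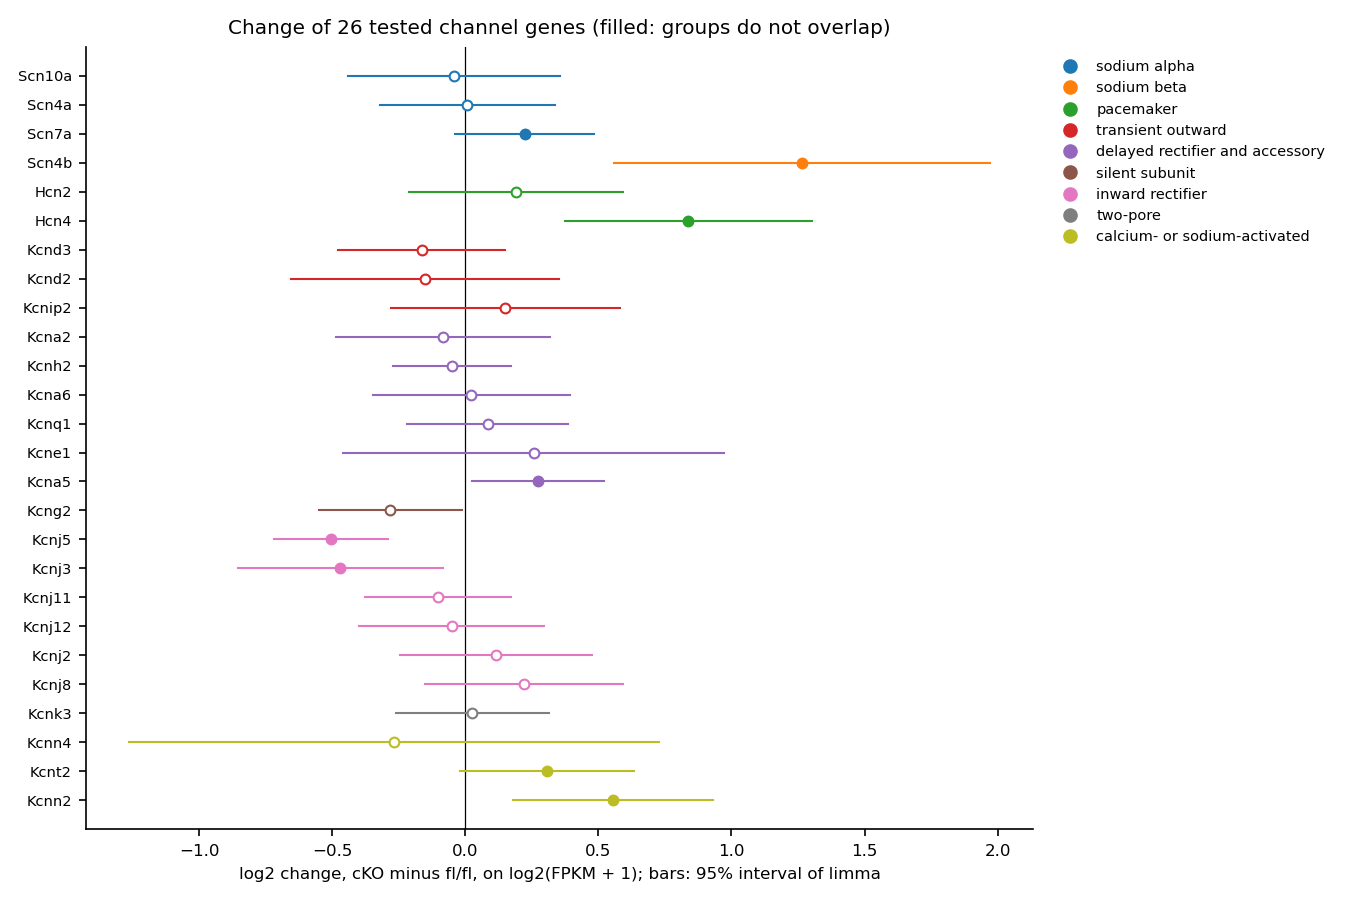
Difference between genotypes for 26 tested channel genes, on the horizontal axis as the log2 change on log2(FPKM + 1), cKO minus fl/fl, with genes ordered by class. Points are limma estimates from 3 against 3 libraries, bars are 95% intervals before adjustment, and filled points mark genes whose groups do not overlap; Scn4b lies farthest to the right at 1.26 and Kcnj5 farthest to the left at -0.51.

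Among the sodium channels, the beta subunit gene Scn4b showed the largest difference of all tested channel genes. Scn4b encodes a single-pass subunit that is linked to the sodium channel and favours resurgent current. It read 10.7, 7.75 and 4.0 FPKM across fl/fl 1 to 3, against 19.2, 22.9 and 13.7 FPKM across cKO 1 to 3. The groups did not overlap, and within each genotype the replicate 3 library was lowest. The mean was 7.48 ± 3.35 FPKM in fl/fl hearts against 18.6 ± 4.61 FPKM in cKO (SD, n = 3 each), a ratio of 2.49. The log2 change was 1.26 (SE 0.31; 95% interval 0.56 to 1.97), and limma did not call it (adjusted p = 0.168). In the authors' deposited table its q-value was 0.00301. Taken by replicate number, which was not established as a pairing of the hearts, the cKO to fl/fl ratio was 1.80, 2.95 and 3.43. With a term that sets replicate 3 apart, limma called the gene (adjusted p = 0.0181), against 0.756% of all genes in that fit. In replicates 1 and 2 alone the log2 change was 1.12 (adjusted p = 0.148), and over all 18 alternatives the adjusted p ran from 0.014 to 0.453. Replicate 3 by itself cannot be tested, with 1 heart of each genotype. The beta subunit genes Scn2b and Scn3b lay below the line for testing.

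Among the sodium alpha subunits, Scn7a, which encodes an atypical sodium-sensing channel, read 7.34 ± 0.924 FPKM in fl/fl hearts against 8.69 ± 0.429 FPKM in cKO (SD, n = 3 each; limma adjusted p = 0.466). Every cKO library lay above every fl/fl library, by as little as 8.44 against 8.36 FPKM. Scn4a, the skeletal muscle sodium channel, was near 5 FPKM in both groups (5.10 and 5.15 FPKM). The neuronal channel Scn10a read 0.698 ± 0.215 FPKM in fl/fl hearts against 0.646 ± 0.155 FPKM in cKO (SD, n = 3 each). A further 6 alpha subunit rows were not tested, with means of at most 0.439 FPKM.

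**Figure D2:**
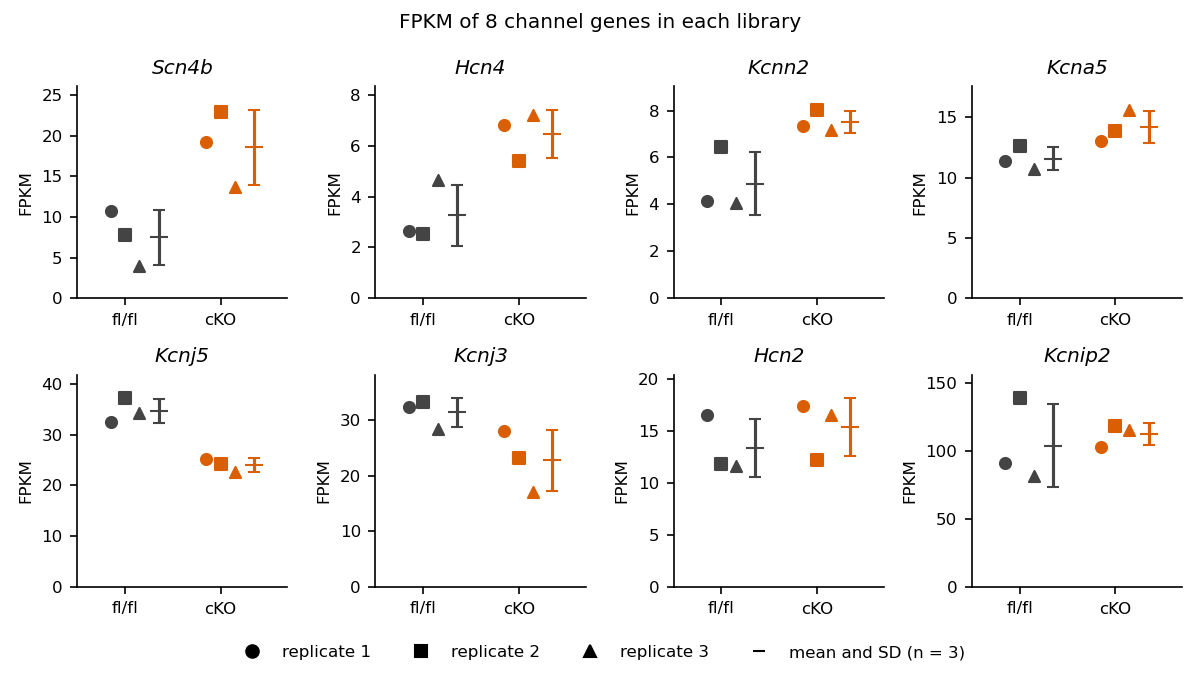
FPKM of 8 channel genes on the vertical axis of each panel, starting at 0, in the 3 fl/fl and 3 cKO libraries on the horizontal axis. Symbols give the replicate number and bars the mean with its SD (n = 3); the genotypes do not overlap for Scn4b, Hcn4, Kcnn2, Kcna5, Kcnj5 and Kcnj3, and overlap for Hcn2 and Kcnip2.

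Among the pacemaker channels, Hcn4 was about 2-fold higher in cKO, and Hcn2 was the most abundant in every heart. Hcn4 encodes the main pacemaker channel of the sinoatrial node and is also expressed in the early embryonic heart. It read 2.63, 2.53 and 4.65 FPKM in fl/fl hearts against 6.82, 5.42 and 7.24 FPKM in cKO. The lowest cKO heart lay above the highest fl/fl heart, fl/fl 3. The means were 3.27 ± 1.20 and 6.49 ± 0.952 FPKM (SD, n = 3 each), a ratio of 1.98. The log2 change of 0.84 (SE 0.20; 95% interval 0.37 to 1.30) did not pass in limma (adjusted p = 0.166), and the authors' deposited table gave a q-value of 0.00301. By replicate number, again without an established pairing, the ratio was 2.59, 2.14 and 1.56. With a term for replicate 3 the adjusted p was 0.0515, in replicates 1 and 2 alone it was 0.155, and over all 18 alternatives it ran from 0.0372 to 0.452. With the pseudocount of 5 the log2 change was 0.481 (adjusted p = 0.17), since the gene is low. Of 10 listed markers of nodal and conduction tissue, Hcn4 was the 1 marker higher in every cKO library. Cntn2, Cpne5 and Vsnl1 were lower in every one. Over all tested genes, the shares were 9.86% higher and 9.92% lower. Vsnl1 lay below the line for testing, with its highest value, 1.56 FPKM, in fl/fl 1. The 9 markers other than Hcn4 summed to 46.0 to 59.5 FPKM in fl/fl hearts against 49.6 to 66.2 FPKM in cKO, most of it from Smoc2. The nodal transcription factor Tbx3 read 2.60 to 4.43 and 3.89 to 4.21 FPKM. The part of nodal tissue in the Hcn4 difference was not tested.

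Hcn2, which is expressed across the working myocardium as well as the node, read 13.4 ± 2.79 FPKM in fl/fl hearts against 15.4 ± 2.79 FPKM in cKO (SD, n = 3 each; limma adjusted p = 0.689). Hcn3 was not tested.

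The acetylcholine-gated inward rectifiers Kcnj3 and Kcnj5 were both lower in all 3 cKO hearts, and their ratio overlapped between genotypes. Their products join in a single heteromeric channel, which opens on vagal stimulation through G protein beta-gamma subunits and is known mainly from atrial and nodal cells. Kcnj5 read 32.4, 37.2 and 34.2 FPKM in fl/fl hearts against 25.3, 24.3 and 22.6 FPKM in cKO, with every cKO heart lower. Its mean went from 34.6 ± 2.39 to 24.1 ± 1.34 FPKM (SD, n = 3 each), a factor of 1.44. The log2 change was -0.51 (SE 0.09; 95% interval -0.72 to -0.29), with the smallest p of the tested channel genes and an adjusted p of 0.0834 in limma. The authors' deposited table gave it a q-value of 0.0110. Kcnj3 read 32.5, 33.2 and 28.5 FPKM in fl/fl hearts against 28.1, 23.1 and 17.2 FPKM in cKO. The groups were separated by a narrow gap, with fl/fl 3 at 28.5 FPKM and cKO 1 at 28.1 FPKM. Its means were 31.4 ± 2.54 and 22.8 ± 5.45 FPKM (SD, n = 3 each), with a log2 change of -0.47 (SE 0.17; limma adjusted p = 0.324) and a q-value of 0.0440 in the authors' deposited table. Without cKO 3 its log2 change was -0.288. The ratio of Kcnj3 to Kcnj5 was 0.832 to 1.00 in fl/fl and 0.759 to 1.11 in cKO.

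Of 11 listed atrial markers, 7 read lower in all cKO hearts than in all fl/fl hearts, against 9.92% of all tested genes. The summed level of all 11, most of it from Nppa, whose groups overlapped, was 3631 to 6417 FPKM in fl/fl hearts against 1241 to 4264 FPKM in cKO. The atrial light chain Myl7 read 1116, 808 and 682 FPKM across fl/fl 1 to 3, against 323, 57.5 and 64.0 FPKM across cKO 1 to 3 (limma adjusted p = 0.109). Bmp10 read 54.9, 27.0 and 21.65 FPKM across fl/fl 1 to 3, against 0.01, 0.0757 and 0.429 FPKM across cKO 1 to 3. Of the 10 tested atrial markers, Bmp10 was the 1 called in limma (adjusted p = 7.7e-04), against 0.481% of all tested genes. Within cKO, Kcnj3 and Kcnj5 were both highest in cKO 1, as was Myl7, while Bmp10 was lowest there. Within fl/fl the order was not shared, since Myl7 was highest in fl/fl 1, where Kcnj5 was lowest, and Kcnj3 was highest in fl/fl 2. The part of atrial tissue in these differences was not tested. In whole hearts, fewer cells of a type and less RNA per cell cannot be told apart.

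The start regions of the 4 genes that the authors' table called and whose groups did not overlap are shown to give the sequence at the starts of the genes described above. The windows are from RefSeq in the build GRCm38.p6, reach from 250 bases before to 50 after the annotated start, and are written along the strand of the gene. Capitals mark matches on either strand to short motifs of factors active in heart muscle or of the clock. The T-box core was searched as AGGTGT, the letters that factors such as Tbx3 and Tbx5 bind. The core of NKX2 factors, which act in heart muscle development, was searched as CAAGTG. The E-box to which the clock factors bind was searched as CACGTG. The D-box, the target of Dbp, was searched as TTANGTAA. The GATA motif was searched as AGATAA, and the MEF2 motif was searched as well. No match overlapped another in these windows. Scn4b lies at chr9:45138374-45138673 on the plus strand, Hcn4 at chr9:58822699-58822998 on the plus strand, Kcnj3 at chr2:55435720-55436019 on the plus strand and Kcnj5 at chr9:32344295-32344594 on the minus strand.
Scn4b: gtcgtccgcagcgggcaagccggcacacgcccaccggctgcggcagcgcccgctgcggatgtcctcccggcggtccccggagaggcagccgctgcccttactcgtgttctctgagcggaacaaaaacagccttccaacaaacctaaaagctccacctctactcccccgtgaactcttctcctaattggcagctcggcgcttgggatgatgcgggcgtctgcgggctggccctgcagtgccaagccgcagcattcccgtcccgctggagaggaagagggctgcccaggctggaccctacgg
Hcn4: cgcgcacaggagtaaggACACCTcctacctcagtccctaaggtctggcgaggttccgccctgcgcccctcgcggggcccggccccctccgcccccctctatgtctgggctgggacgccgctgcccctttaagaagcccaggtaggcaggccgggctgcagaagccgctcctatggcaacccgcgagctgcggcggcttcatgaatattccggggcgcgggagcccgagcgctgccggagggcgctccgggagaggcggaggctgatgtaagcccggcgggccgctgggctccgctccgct
Kcnj3: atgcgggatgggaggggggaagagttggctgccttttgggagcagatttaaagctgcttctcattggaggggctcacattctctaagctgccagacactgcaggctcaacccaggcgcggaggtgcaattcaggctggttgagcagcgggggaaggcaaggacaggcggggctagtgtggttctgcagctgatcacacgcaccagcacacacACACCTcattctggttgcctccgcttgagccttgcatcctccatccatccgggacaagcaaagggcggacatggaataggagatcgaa
Kcnj5: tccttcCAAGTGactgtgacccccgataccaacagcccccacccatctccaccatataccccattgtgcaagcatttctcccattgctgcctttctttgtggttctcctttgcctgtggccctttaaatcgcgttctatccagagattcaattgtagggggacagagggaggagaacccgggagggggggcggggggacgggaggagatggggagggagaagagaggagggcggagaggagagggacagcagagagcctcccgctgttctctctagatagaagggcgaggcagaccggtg
Hcn4 and Kcnj3 each held 1 T-box core, read on the opposite strand, Kcnj5 held 1 NKX2 core, and the Scn4b window held no match. A T-box core occurs in 13.7% of all 32851 windows and in 17 of 111 windows of channel genes, and an NKX2 core in 13.6% and in 22 of 111. The clock E-box, the D-box, the GATA motif and the MEF2 motif occur in 7.15%, 2.32%, 11.2% and 3.69% of all windows and in 7, 2, 5 and 2 of the channel windows. The Scn4b and Hcn4 windows held 26 and 31 CG pairs and those of Kcnj3 and Kcnj5 held 10 each, against a median of 7 over all windows. The 111 windows belonged to 84 of the 116 channel rows.

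The strong and ATP-sensitive inward rectifiers were close in both genotypes. Kcnj2 and Kcnj12, the pores of the background current that sets the resting potential of ventricular cells, read 16.1 ± 2.53 and 12.0 ± 2.77 FPKM in fl/fl hearts against 17.6 ± 3.16 and 11.3 ± 0.643 FPKM in cKO (SD, n = 3 each). Kcnj11, the pore of the ATP-sensitive channel of heart muscle, read 59.4, 78.4 and 61.1 FPKM in fl/fl hearts against 62.6, 62.1 and 59.2 FPKM in cKO, and fl/fl 2 alone stood above the others. Kcnj8, the corresponding pore of smooth muscle and pericytes, read 25.9, 32.3 and 29.1 FPKM in fl/fl hearts against 26.6, 36.0 and 40.8 FPKM in cKO, so the groups overlapped. Limma adjusted p-values of these 4 genes ran from 0.609 to 0.918. Their sulfonylurea receptor partners differed in direction. Abcc9 was higher in every cKO library, at 81.3, 94.4 and 80.0 FPKM against 71.2, 59.7 and 60.4 FPKM, and Abcc8 was lower in every one, at 6.33, 7.86 and 7.33 FPKM against 10.4, 10.5 and 8.48 FPKM. Neither passed in limma (adjusted p = 0.208 and 0.267). The 7 pericyte markers other than Kcnj8 summed to 260 to 302 FPKM in fl/fl hearts against 309 to 374 FPKM in cKO. This sum includes Abcc9, and its largest part was Rgs5, whose groups overlapped. Of all 8 pericyte markers, 3 were higher in every cKO library, Abcc9 among them, against 9.86% of all tested genes. The part of pericytes in these values was not tested.

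Transient outward channel genes did not pass in either direction. Kcnip2 encodes the calcium-binding subunit that carries Kv4 channels to the membrane and was the most abundant channel gene in fl/fl hearts. It read 91.0, 139 and 81.4 FPKM in fl/fl hearts against 103, 119 and 115 FPKM in cKO, with the cKO values inside the fl/fl range. Kcnd2, the main Kv4 pore of mouse ventricle, read 9.38, 9.83 and 7.40 FPKM in fl/fl hearts against 10.3, 8.74 and 5.26 FPKM in cKO, where replicate 3 was lowest in both groups. Kcnd3, the other Kv4 pore, read 4.35 ± 0.676 and 3.76 ± 0.423 FPKM (SD, n = 3 each), and it shares its stretch with Kcnd3os. Limma adjusted p-values of the 4 tested genes of this class ran from 0.655 to 0.833, and the 95% interval of the log2 change was -0.65 to 0.35 for Kcnd2 and -0.28 to 0.58 for Kcnip2. Kcna4, the pore of the slowly recovering outward current, averaged 0.475 FPKM and was just under the line for testing. The nearest rows above that line were Kcna2 and Kcna6, at 0.538 and 0.550 FPKM.

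Among the delayed rectifiers, the pore gene Kcna5 was higher in every cKO heart. Of 16 tested genes of this class, accessory subunits included, 3 had an unadjusted p under 0.05 in limma, or 18.8% against 12.2% of all tested genes, and none was called. Kcna5, the pore of the ultrarapid current, read 11.4, 12.6 and 10.7 FPKM in fl/fl hearts against 13.0, 13.9 and 15.6 FPKM in cKO, without overlap (log2 change 0.27, SE 0.11; limma adjusted p = 0.377).

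The pores of the rapid and slow delayed rectifier currents did not separate the genotypes. Kcnh2, the ERG channel of the rapid current, read 35.6, 39.9 and 34.3 FPKM in fl/fl hearts against 36.9, 36.2 and 32.8 FPKM in cKO (95% interval of the log2 change -0.27 to 0.17). Kcnq1, the pore of the slow current, read 16.6, 20.5 and 21.0 FPKM in fl/fl hearts against 17.6, 21.9 and 22.3 FPKM in cKO, with replicate 1 lowest in both. Its row shares a stretch with Kcnq1ot1, a non-coding RNA of the opposite strand that averaged under 0.5 FPKM. Kcne1, the accessory subunit of Kcnq1, varied more than it differed, at 2.39, 2.83 and 5.23 FPKM in fl/fl hearts against 2.38, 5.90 and 4.89 FPKM in cKO. Limma adjusted p-values of these 3 genes were 0.868, 0.825 and 0.774.

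Kcng2 encodes an electrically silent Kv6 subunit that forms channels only together with other pore-forming subunits. It was the most abundant Kv alpha subunit gene, at 50.2, 60.3 and 59.8 FPKM in fl/fl hearts against 45.3, 42.1 and 52.3 FPKM in cKO. Of the 3 cKO hearts, 2 lay below all fl/fl hearts, and cKO 3 lay above fl/fl 1. The log2 change was -0.28 (SE 0.12; limma adjusted p = 0.397).

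Two-pore and calcium-activated channels held 1 gene with non-overlapping groups and a ratio above 1.5. Kcnn2, a small-conductance calcium-activated pore, read 4.16, 6.45 and 4.05 FPKM in fl/fl hearts against 7.33, 8.04 and 7.15 FPKM in cKO. The mean went from 4.89 ± 1.36 to 7.51 ± 0.470 FPKM (SD, n = 3 each), a ratio of 1.54 with a log2 change of 0.55 (SE 0.16; limma adjusted p = 0.253). Library fl/fl 2 was nearest to cKO, and its row shares a stretch with A330093E20Rik. Without fl/fl 2 the log2 change was 0.736, and the adjusted p ran from 0.0878 to 0.558 over all alternatives. Kcnk3, the acid-sensitive TASK-1 background channel, was the second most abundant channel gene and read 65.7, 80.7 and 85.3 FPKM in fl/fl hearts against 71.2, 78.2 and 85.9 FPKM in cKO, with replicate 1 lowest in both groups (95% interval of the log2 change -0.26 to 0.31). Kcnt2, a sodium-activated pore, also separated the groups, with a ratio of 1.40 (limma adjusted p = 0.430). Kcnma1, the large-conductance channel of smooth muscle, averaged 0.220 FPKM in fl/fl hearts against 0.151 FPKM in cKO and was not tested.

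Ranked by level per length in fl/fl hearts, the most abundant of the genes described were Kcnip2, Kcnk3, Kcnj11, Kcng2, Kcnh2, Kcnj5, Kcnj3, Kcnj8 and Kcnq1, from 104 down to 19.3 FPKM. Neighbours in this order overlapped between libraries except Kcng2 and Kcnh2, at 50.19 against 39.9 FPKM, and Kcnj8 and Kcnq1. The summed level of all channel rows was 634 to 731 FPKM in fl/fl hearts against 652 to 679 FPKM in cKO. As a part of each library's summed FPKM it was 9.50 to 10.1 per 10000 in fl/fl and 10.8 to 11.4 per 10000 in cKO, which do not overlap. The summed level of the cardiomyocyte markers listed as ventricular above was lower in cKO, and its part in this share was not tested.

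**Figure D3:**
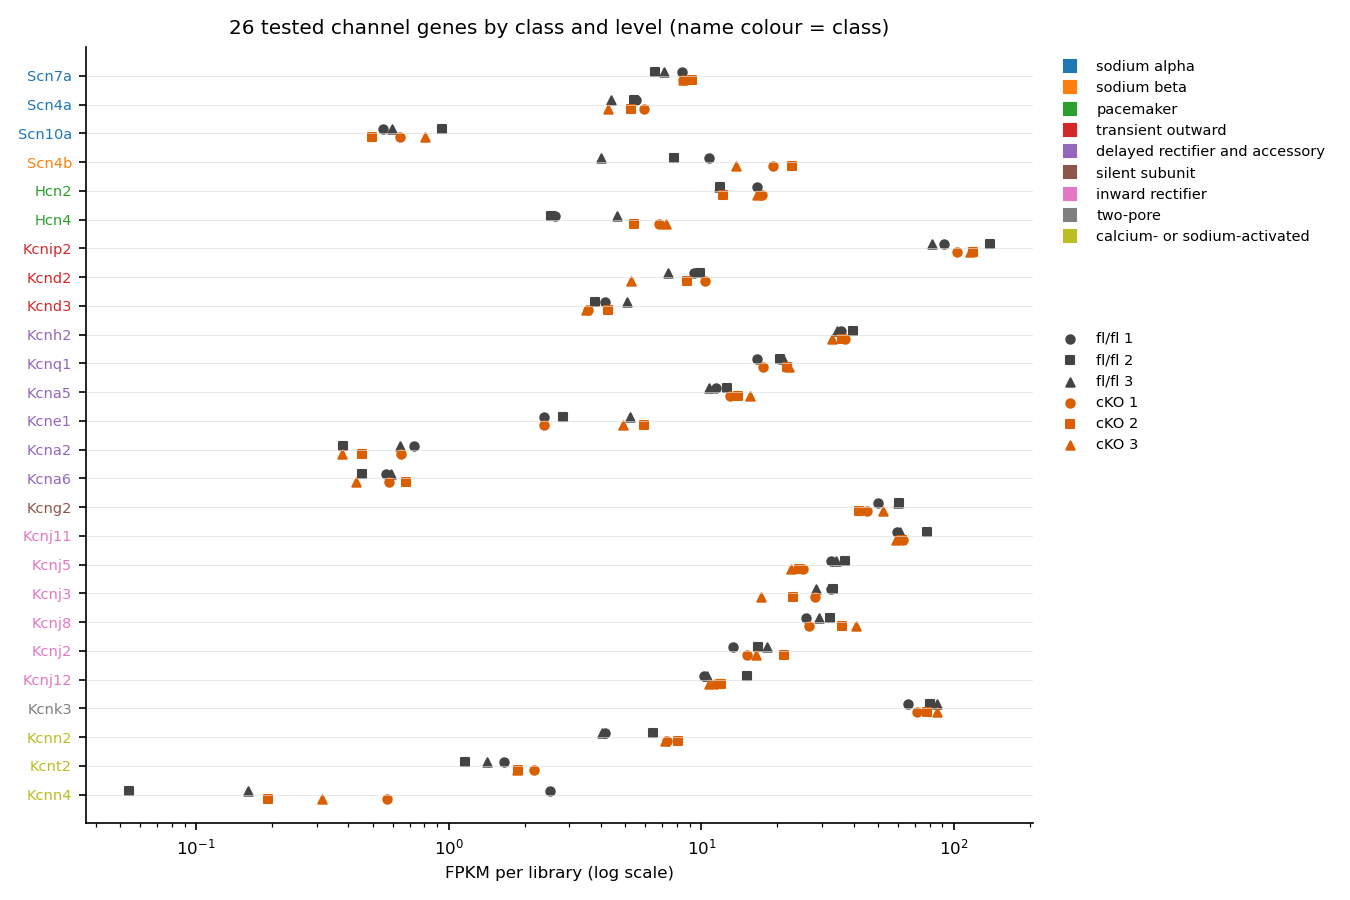
FPKM of 26 tested channel genes in each library, on a logarithmic horizontal axis, with genes ordered by class and by fl/fl level within a class. Dark grey symbols are the 3 fl/fl and orange symbols the 3 cKO libraries, and the symbol shape gives the replicate number; the levels span from 0.0544 FPKM for Kcnn4 in fl/fl 2 to 139 FPKM for Kcnip2 in the same library.

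Channel genes of lymphocytes were high in 1 library, as examples chosen after their values were seen. Kcnn4, a calcium-activated pore of lymphocytes and red cells, read 2.51 FPKM in fl/fl 1 and 0.0544 to 0.571 FPKM in the other 5 libraries. Kcna3, the Kv1.3 channel of T cells, read 1.15 FPKM in fl/fl 1, compared with at most 0.270 FPKM elsewhere. The T cell gene Cd3e read 7.01 FPKM in fl/fl 1, compared with at most 0.626 FPKM elsewhere, and Rag1 is given above. Without fl/fl 1, none of the tested channel genes was called.

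Below the line for testing, the groups did not overlap for 5 of the 55 channel rows with any value above the lowest, or 9.09%, against 7.2% of all such rows of the table. The clearest, also chosen after its values were seen, was Kcnc1, a fast Kv3 pore of neurons, at 0.0660, 0.0249 and 0.0122 FPKM in fl/fl hearts against 0.572, 0.635 and 0.329 FPKM in cKO. Every cKO heart was above every fl/fl heart, with a ratio of means of 14.9. In the fit without a filter the log2 change was 0.54 (SE 0.09; limma adjusted p = 0.138). The number of reads behind such values is not given, so their counting error cannot be stated. Of 10 neuronal markers, 0 were higher and 1 was lower in every cKO library, against 9.86% and 9.92% of all tested genes. Of these markers, 3 reached the line for testing.

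Genes that act with the channels were taken from a list of 53 names, among them other accessory proteins, anchors, ion pumps and regulators. The listed name Mog is that of a myelin gene rather than a channel partner, and it lay below the line for testing. None of the 48 that could be tested was called in limma (lowest adjusted p = 0.208). At an unadjusted p under 0.05 there were 13, or 27.1%, against 12.2% of all tested genes. Of these 13, 3 were higher and 10 lower in cKO. Of the 1599 such genes among all tested, 791 were higher and 808 lower. The groups did not overlap for 14, or 29.2%, against 19.8% of all tested genes. Among those with the smallest p-values, Fgf12, an intracellular modulator of sodium channel inactivation, read 4.60, 1.99 and 3.43 FPKM in fl/fl hearts against 1.94, 0.271 and 0.421 FPKM in cKO. Its cKO 1 value lay just under that of fl/fl 2. The related modulator Fgf13 read 28.8, 38.9 and 31.4 FPKM in fl/fl hearts against 24.7, 28.5 and 20.8 FPKM in cKO, also without overlap. Gja5, the connexin of atrial and conduction cells, read 6.02 ± 1.25 FPKM in fl/fl hearts against 3.63 ± 0.608 FPKM in cKO, and Cntn2, a marker of conduction cells, was lower in every cKO heart as well. Popdc2, a cyclic AMP-binding protein that affects two-pore channels, read 286 ± 20.1 and 347 ± 17.2 FPKM (SD, n = 3 each). The iroquois factor Irx3, the nodal factor Tbx3 and the clock-controlled Klf15, a regulator of Kcnip2 in mice, overlapped between genotypes. Klf15 was lowest in replicate 3 of each group, at 21.8 and 13.6 FPKM.

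**Figure D4:**
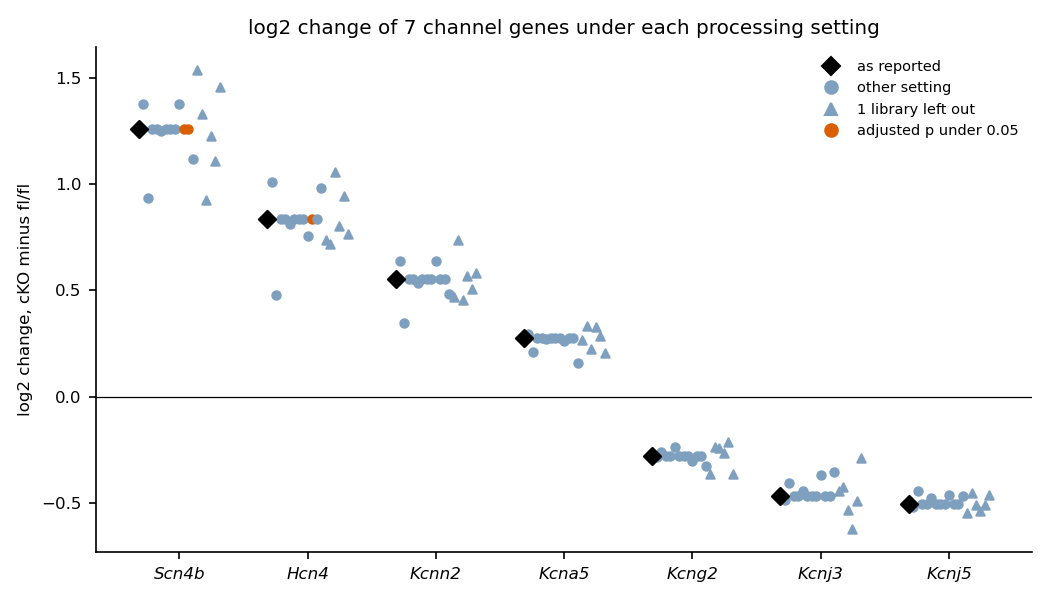
The log2 change of 7 channel genes, cKO minus fl/fl on the vertical axis, under the setting reported and 18 alternatives. Diamonds are the reported values, circles other settings, triangles fits without 1 library and orange symbols an adjusted p under 0.05; no gene shown changes its sign, and only Scn4b and Hcn4 have orange symbols.

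In the authors' files Scn4b lies on chromosome 9 from 44947124 to 44962144, Hcn4 on chromosome 9 from 58671318 to 58708762, Kcnj5 on chromosome 9 from 32122367 to 32151822, and Kcnj3 on chromosome 2 from 55288380 to 55450556. These coordinates are those of whole gene rows and differ from the build of the start regions above. Of the 116 rows, 20 share a stretch with another row of the file, 8 of them tested.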

How the data were processed

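Polyadenylated RNA of 6 hearts was sequenced, and the titles give genotype and replicate number. TopHat (1.0.0), Cufflinks and Cuffdiff are named in the submitters' processing notes, and the authors deposited FPKM per gene and library, beside the p-value and q-value of every gene. The kit named in the labels' protocols was a TruSeq version that marks no strand, although the series description speaks of stranded libraries. Overlapping rows on opposite strands may therefore share reads. The submitters name mm10, but Kcnq1 ends at 150612947 on chromosome 7, beyond the last RefSeq gene end of that chromosome in GRCm38 (145324059), so the coordinates are not mm10. Rows below 0.01 FPKM do not occur, 1 row with a failed value was left out, and 27 rows have names turned into dates.

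FPKM are not counts, so log2(FPKM + 1) was tested with limma 3.58.1 in R 4.3.3 (moderated, two-sided, with the intensity trend) on 13096 rows with a mean of at least 0.5 FPKM, with Benjamini-Hochberg adjustment at 0.05. On this scale, changes of genes with few FPKM come out too small. Each library is a separate animal, and 3 libraries per group limit the precision. The test was also run on simulated data. The members and lists were chosen with earlier results of these data known. Named were genes called by limma or by the authors, 25 main cardiac subunits, tested genes with non-overlapping groups and a ratio of at least 1.5, and the 10 highest levels; some of these genes are not reported here. Alternatives covered pseudocounts of 0.1 and 5, the filter, scaling, the variance model, weights, replicate 3 as a term, the replicate block and leaving out single libraries. Plots used matplotlib 3.10.9 (Python 3.11.15).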

Additional observations from a re-analysis of the deposited data

How the results depend on the processing

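Over the 18 alternatives, the count of channel genes called higher in cKO was 0 except with replicate 3 as a term (1, Scn4b) and with the replicate block (2, Scn4b and Hcn4, adjusted p = 0.014 and 0.0372), and the count called lower was 0 throughout. Deviations of same-numbered libraries correlated at 0.084, 0.251 and 0.406, not all above 0.1. Library cKO 1 correlated best with fl/fl 2 (0.141), so a pairing of the samples by number was not established. Under the block, 180 genes were called in all and 1 partner gene, Fgf12. Over all tested genes 63 were called, 14 with no filter, 35 with no intensity trend, 99 with replicate 3 as a term, 11 in replicates 1 and 2 only and 13 to 35 with 1 library left out. Signs were kept in all alternatives for 11 of 20 named genes that were tested, Scn4b, Hcn4, Kcnj5, Kcnj3, Kcnn2, Kcna5 and Kcng2 among them. The sign reversed to -0.0228 for Kcnip2 in replicates 1 and 2 only and to 0.0345 for Kcnj12 with array weights. The cause was not tested. With 1 library left out, log2 changes ran from -0.329 to 0.0986 for Kcnd2, -0.0942 to 0.0121 for Kcnh2, -0.00222 to 0.377 for Kcnip2, -0.173 to 0.024 for Kcnj11, -0.145 to 0.119 for Kcnj12, -0.0188 to 0.208 for Kcnj2, -0.0836 to 0.102 for Kcnk3, -0.0182 to 0.189 for Kcnq1 and -0.11 to 0.0601 for Scn10a. Low genes are limited by an unknown number of reads, and 3 hearts per group limit every call.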
